A study of Rattus norvegicus with 55 samples.

Results

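Rat kidneys described by the submitters only as young, or as kidney with no stage word, fell into 2 kinds of array by the signal of a single probe set, X56596_at, annotated to RT1-Bb, the gene for the beta chain of the rat class II molecule RT1-B. The arrays were those of both descriptions with an intensity below 9000 on AFFX-CreX-3_at, a probe set for a spiked bacteriophage control, and they were split at an intensity of 600 on X56596_at. This gave 13 of the 55 arrays in the series, 6 above 600 and 7 below it. Of the young kidneys, 3 were above and 3 below, and of the kidneys with no stage word, 3 were above and 4 below. Every title names SHR, the spontaneously hypertensive rat, a strain raised from Wistar stock, and every description calls the tissue Wistar-derived rat kidney. The labels give no genotype, treatment, age in days or sex for any group, and they do not say whether an array is 1 animal or a pool. They therefore do not say that arrays are separate animals, and every p-value measures the spread between these arrays, which may be technical.

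Class II molecules are pairs of an alpha and a beta chain that carry peptides to the surface of antigen-presenting cells, where helper T cells read them. In the rat they are encoded within the RT1 complex, as RT1-B (Ba and Bb chains) and RT1-D (Da and Db1 chains), and the invariant chain Cd74 and the DM and DO molecules steer peptide loading inside the cell. In kidney, class II is known from dendritic cells and macrophages between the tubules, and tubule cells can also make it. RT1 genes differ in sequence between rat strains, and a short array probe reads only the sequence it was designed on.

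The values on X56596_at made the groups and are a description. They were 1484.4, 1837.3 and 2381.2 (lowest, median, highest) in the 6 arrays above and 99.3, 147.6 and 175.3 in the 7 arrays below. No array lay near the threshold, so that thresholds of 300 and 1200 gave the same groups. On the control that set the range of arrays, the 13 ran from 4806.5 to 8710.4, and the next array of either description stood at 11067.7.

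The 4 chains are shown with the stretch of DNA around their start sites, since 1 or more probe sets of RT1-Ba, RT1-Bb and RT1-Db1 separated the sides and neither of RT1-Da did. Each is the RefSeq window of 250 bases before to 50 after the start in the GRCr8 assembly, read 5′ to 3′ on the strand of the gene, with matches to CTGATTGG, which contains the CCAAT box of class II promoters in reverse, and to CTAGCAAC, an X box core, in capitals. The windows are chr20:4576807-4577106 on the plus strand for RT1-Ba, chr20:4604069-4604368 on the minus strand for RT1-Bb, chr20:4560113-4560412 on the minus strand for RT1-Db1 and chr20:4515165-4515464 on the plus strand for RT1-Da.
RT1-Ba: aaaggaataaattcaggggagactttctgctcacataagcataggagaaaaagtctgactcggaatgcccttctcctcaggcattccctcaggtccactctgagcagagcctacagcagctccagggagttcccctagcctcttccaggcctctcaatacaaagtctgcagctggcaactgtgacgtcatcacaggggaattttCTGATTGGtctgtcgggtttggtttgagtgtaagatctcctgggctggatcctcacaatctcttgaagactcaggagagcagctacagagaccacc
RT1-Bb: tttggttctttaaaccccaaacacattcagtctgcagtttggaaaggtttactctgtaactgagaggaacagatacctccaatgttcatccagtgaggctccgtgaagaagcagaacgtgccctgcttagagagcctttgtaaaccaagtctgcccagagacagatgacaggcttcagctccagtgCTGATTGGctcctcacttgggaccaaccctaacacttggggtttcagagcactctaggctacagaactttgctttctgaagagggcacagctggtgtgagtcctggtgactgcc
RT1-Db1: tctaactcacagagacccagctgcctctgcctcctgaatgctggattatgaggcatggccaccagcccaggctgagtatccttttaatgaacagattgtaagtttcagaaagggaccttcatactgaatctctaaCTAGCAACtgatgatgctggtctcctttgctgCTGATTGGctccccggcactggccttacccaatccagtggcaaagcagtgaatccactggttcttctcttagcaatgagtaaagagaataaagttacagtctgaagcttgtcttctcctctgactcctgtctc
RT1-Da: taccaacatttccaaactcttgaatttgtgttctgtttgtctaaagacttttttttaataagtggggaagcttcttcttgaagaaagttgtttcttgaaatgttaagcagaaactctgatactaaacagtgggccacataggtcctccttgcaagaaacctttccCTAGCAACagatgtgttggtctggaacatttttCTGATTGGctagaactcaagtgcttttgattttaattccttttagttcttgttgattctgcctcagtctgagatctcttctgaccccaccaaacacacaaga
The first motif starts 46 bases before the start site in RT1-Ba, 64 in RT1-Bb, 83 in RT1-Db1 and 52 in RT1-Da, in the forward direction each time. The second was found in RT1-Db1, 115 bases before the start, and in RT1-Da, 85 bases before it. Only exact matches were searched, so a window without a mark may still hold a variant of this motif. Searched on both strands, the first motif occurs in 3.5% and the second in 1.3% of the 33469 promoter windows of this length. The 2 motifs do not overlap, and a match is a description of these letters, not a measured site. The windows come from a reference genome, not from the animals on these arrays.

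Pairs of arrays of one description and one side had a median correlation of 0.982 across probe sets on the log2 scale, against 0.976 for pairs of one description on opposite sides and 0.968 for pairs of different descriptions. The ratio of the 3′ to the 5′ GAPDH control, a sign of RNA quality, was 0.891 to 1.08 above 600 and 0.924 to 1.22 below. A 5S ribosomal RNA control separated the descriptions, with 166.1 to 278.5 in young and 402.8 to 537.0 in kidneys with no stage word, but the sides of the split overlapped on it. Of the arrays with no stage word below 600, replicate 10 stood apart from the other 3 on several probe sets, and the differences of the genes concerned are given with and without it. Its ratio of the 3′ to the 5′ actin control was 1.75, the highest of the 13, where the ratio ran from 1.2 to 1.5 above 600 and from 1.13 below. As a check of the tissue, all 40 proximal tubule genes on the array were above the filter on low values, with a summed level of 155588.9 to 185292.8 above 600 and 159507.6 to 207681.6 below.

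The probe sets annotated to RT1-Bb went in different directions, so that the arrays above 600 cannot be called high in RT1-Bb as a gene. M36151cds_i_at read 2.1 to 5.6 with a median of 2.75 in the 6 arrays above and 574.3 to 1006.6 with a median of 745.2 in the 7 below. U65217_i_at likewise read 3.1 to 23.7 above and 287.1 to 728.4 below. Both are mirror images of X56596_at, and neither overlaps between the sides. M36151cds_s_at, the brightest of the 5 over all arrays, read 1332.1 to 1585.6 above and 1003.9 to 1478.2 below, and M15358cds_at stayed dim, at 4.0 to 8.2 above and 3.8 to 37.7 below, so on these the sides overlapped. No test is given for any of them, since they are annotated to the gene that made the groups. The split is therefore named here by its probe set and not by a level of RT1-Bb. The labels give no strain for single arrays beyond the shared title and description. For the RT1 genes and all others here, different strains on the 2 sides, RNA level and the sequence under the probes cannot be told apart. Higher or lower therefore means the signal of the probe set throughout.

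**Figure D1:**
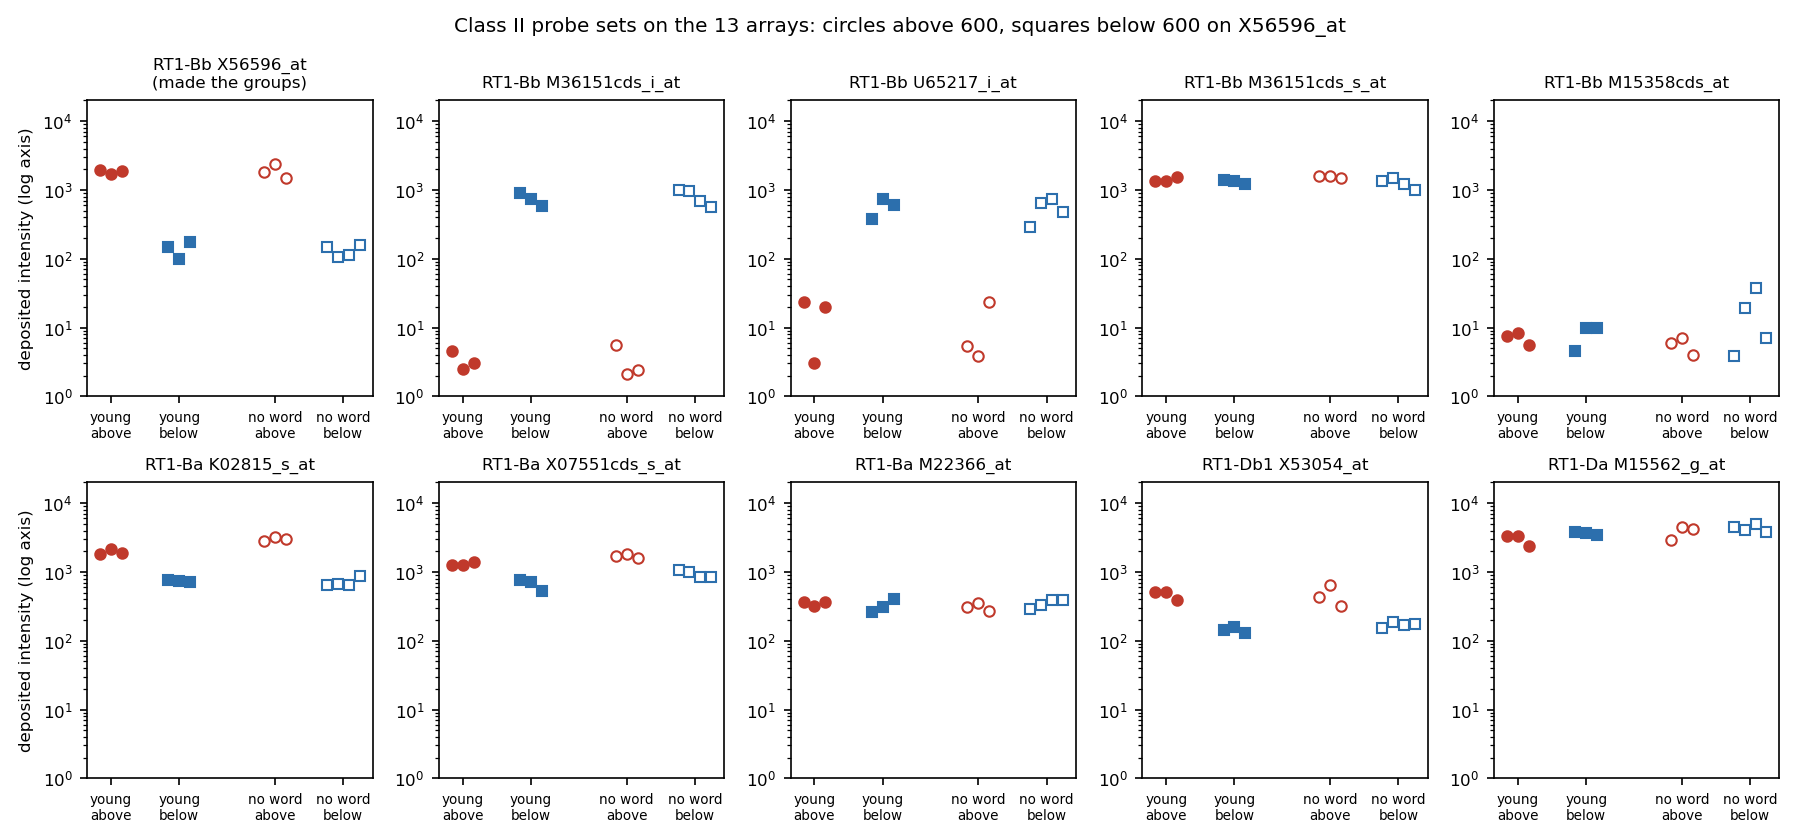
Deposited intensity (log axis) of 10 class II probe sets, 1 point per array, by description (young, filled; no stage word, open) and by side of 600 on X56596_at (above, circles; below, squares). X56596_at, RT1-Ba K02815_s_at and RT1-Db1 X53054_at are higher above 600, M36151cds_i_at and U65217_i_at run the other way, with medians of 2.75 against 745.2 and 12.7 against 601.3, and the RT1-Da panel overlaps.

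Across the array, the comparison asked which other probe sets followed the split once the description was held fixed. It was fitted with limma on log2(intensity + 15.82) over 6554 probe sets, leaving out X56596_at. An adjusted p under 0.05 was reached by 211 probe sets (3.22%), 116 higher (1.77%) and 95 lower (1.45%) in the arrays above 600. Of them, 209 are not annotated to RT1-Bb alone, and 50 of these have no single gene symbol. An unadjusted p under 0.05 was reached by 837, and the median difference over all tested was -0.006. Because the groups come from a measured value, these p-values say how closely a probe set follows the split and not that a labelled condition changed it. Without replicate 10 of the arrays with no stage word the count was 240. In bulk kidney, fewer cells of a type and less RNA per cell cannot be told apart, here and in each result that follows. All differences are on this log2 scale, which understates the change of dim probe sets.

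RT1-Ba, the alpha chain that pairs with RT1-Bb, was higher in the arrays above 600 on 2 of its 3 probe sets. K02815_s_at read 1805.1, 2481.6 and 3183.9 (lowest, median, highest) above and 645.9, 720.4 and 884.1 below. The sides did not overlap, and the highest of the arrays below was replicate 10. The difference was 1.74 ± 0.13 (SE; 13 arrays), a 3.34-fold rise, with limma adjusted p = 1.6e-06. It was 1.37 in the young arrays, 2.06 in those with no stage word and 1.77 without replicate 10. RT1-Ba was proposed as a marker of the split from these same arrays, so its p-values in them are no independent support. X07551cds_s_at read 1249.3 to 1824.8 above and 526.7 to 1073.2 below, again without overlap, and differed by 0.89 ± 0.10 (limma adjusted p = 0.00013). M22366_at read 271.2 to 371.0 above and 262.8 to 398.7 below, with a difference of -0.02 ± 0.12 whose sides overlapped.

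RT1-Db1, the beta chain of the other classical class II molecule, was higher on both of its probe sets. X53054_at read 314.9, 468.0 and 657.0 above and 130.7, 160.7 and 187.8 below, a difference of 1.44 ± 0.15 (limma adjusted p = 3e-05). X53054_g_at read 1232.7 to 2341.1 above and 777.2 to 1203.7 below, a difference of 0.65 ± 0.12 (limma adjusted p = 0.0052). Neither overlapped between the sides. RT1-Da, the alpha chain of the same molecule, did not pass the test: M15562_g_at read 2414.2 to 4454.4 above and 3425.3 to 4912.4 below, with a difference of -0.22 ± 0.12 and adjusted p = 0.50 in limma. M15562_at gave -0.38 ± 0.15 (limma adjusted p = 0.29).

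Cd74, the invariant chain that holds the groove of class II until peptides are loaded, was lower above 600. X13044_g_at read 2429.6 to 2596.2 in the 3 young arrays above and 3666.4 to 3787.6 in the 3 below. In kidneys with no stage word it read 4639.3 to 4664.2 above and 5507.7 to 6970.4 below. The sides separated within each description and overlapped across them, and the level in young minus no stage word was -0.81. The difference between the sides was -0.50 ± 0.08 (limma adjusted p = 0.0036), and without the description in the fit the adjusted p was 0.41. The other 3 Cd74 probe sets differed by -0.24 to -0.37, of which X13044_at passed (limma adjusted p = 0.031) and lost its call when any of 7 arrays was left out.

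Of the 12 genes of the class II and antigen loading list that were above the filter, each read by its brightest probe set, 2 were higher (RT1-Ba, RT1-Db1) and 1 lower (Cd74), with a median of -0.04. Over all 3832 named genes 2.84% passed, with a median of -0.01. RT1-Bb is in this list through M36151cds_s_at, which gave 0.21. The loading molecules RT1-DMa (-0.05 ± 0.11), RT1-DMb (-0.17 ± 0.14) and RT1-DOa (-0.03 ± 0.09) and the class II chain RT1-Ha (0.04 ± 0.12) did not pass. Neither did the proteases Ctss (-0.27 ± 0.10) and Ctse (0.33 ± 0.18) or the class II promoter factor Rfx5 (-0.04 ± 0.09). RT1-DOb fell under the filter, at a median of 6.65 above and 6.8 below. Ciita, the master switch of class II, is not among the genes tested here.

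Class I molecules show peptides to killer T cells. Of 13 class I and antigen processing genes tested, 3 were lower and none higher above 600 (23.1%, against 2.84% of all named genes), with a median of -0.16. RT1-A3 read 41.6, 84.8 and 163.5 above and 185.4, 291.8 and 342.7 below, without overlap, a difference of -1.53 ± 0.22 (limma adjusted p = 0.00077). RT1-CE16 read 4619.5 to 7216.6 above and 9977.3 to 12773.2 below, a difference of -0.97 ± 0.09 (limma adjusted p = 8e-06). Its probe set carries the suffix for probes shared within a gene family, so the class I copy behind the signal is uncertain. Psmb8, a protease subunit of the immunoproteasome, read 214.0 to 351.9 above and 408.7 to 557.1 below, a difference of -0.61 ± 0.12 (limma adjusted p = 0.011).

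The called genes were also placed in the annotated gene order of GRCr8 around RT1-Bb, as counts with no test. Within 100 annotated genes on either side, 5 of 47 tested genes passed (10.6%): RT1-Ba, RT1-Db1, Psmb8, RT1-A3 and Kifc1. Kifc1, a minus-end kinesin motor, is named after its value was seen, at 1.20 ± 0.23 (limma adjusted p = 0.0088). On the whole chromosome it was 9 of 126 (7.14%), with RT1-CE16, Ddt, Gstt2 and Spock2 added, and on other chromosomes 2.65%. None of 19 tested class III and neighbouring genes passed, and their median was -0.04. The smallest p among these belonged to Skic2, an RNA helicase (0.18 ± 0.12), Hspa1l, a testis heat shock protein (-0.26 ± 0.18), and Aif1, a macrophage protein (0.13 ± 0.10).

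Ephx2, the soluble epoxide hydrolase that turns epoxy fatty acids into diols, was higher above 600 on all 4 of its probe sets and held the smallest adjusted p of the genes named here. X60328_g_at read 833.4, 941.7 and 1138.5 above and 25.5, 34.7 and 41.5 below. X65083cds_at read 629.0 to 829.2 above and 30.5 to 40.8 below, and X60328_at read 357.7 to 654.0 above and 12.2 to 24.4 below. None of these overlaps, and both descriptions show the same gap. The differences were 4.33 ± 0.10, 3.73 ± 0.08 and 3.82 ± 0.12, with limma adjusted p = 2.5e-12, 1e-12 and 4.6e-11. The brightest probe set, rc_AI104882_s_at, read 1178.2 to 1516.0 above and 268.8 to 570.3 below, a difference of 1.61 ± 0.14 (limma adjusted p = 5.6e-06).

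Cela1, a chymotrypsin-like elastase best known from the exocrine pancreas, was higher above 600. In the young kidneys it read 1286.2, 1341.5 and 1421.9 above and 223.2, 230.7 and 230.0 below. In the kidneys with no stage word it read 1473.2, 1357.2 and 1369.7 above and 482.8, 462.3, 443.3 and 417.6 below. The sides are far apart in both, and the young arrays below are the lowest. The difference was 2.01 ± 0.14 (95% interval 1.71 to 2.31), a 4.04-fold rise, with limma adjusted p = 7.7e-07. Cela1 was proposed as a marker of the split from these same arrays, so its p-value is no independent support.

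It was the only one of 9 tested exocrine pancreas genes that passed (11.1%, against 2.84% of all named genes). The esterase Cel read medians of 45.4 above and 59.1 below (-0.30 ± 0.15), the chymotrypsinogen Ctrb1 read 51.0 and 52.9 (-0.17 ± 0.12), and 8 of the 17 listed genes on the array were too dim to test. The summed level of the 9 was 2296.3 to 2680.9 above and 1155.5 to 1625.5 below, and Cela1 is a large part of it.

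**Figure D2:**
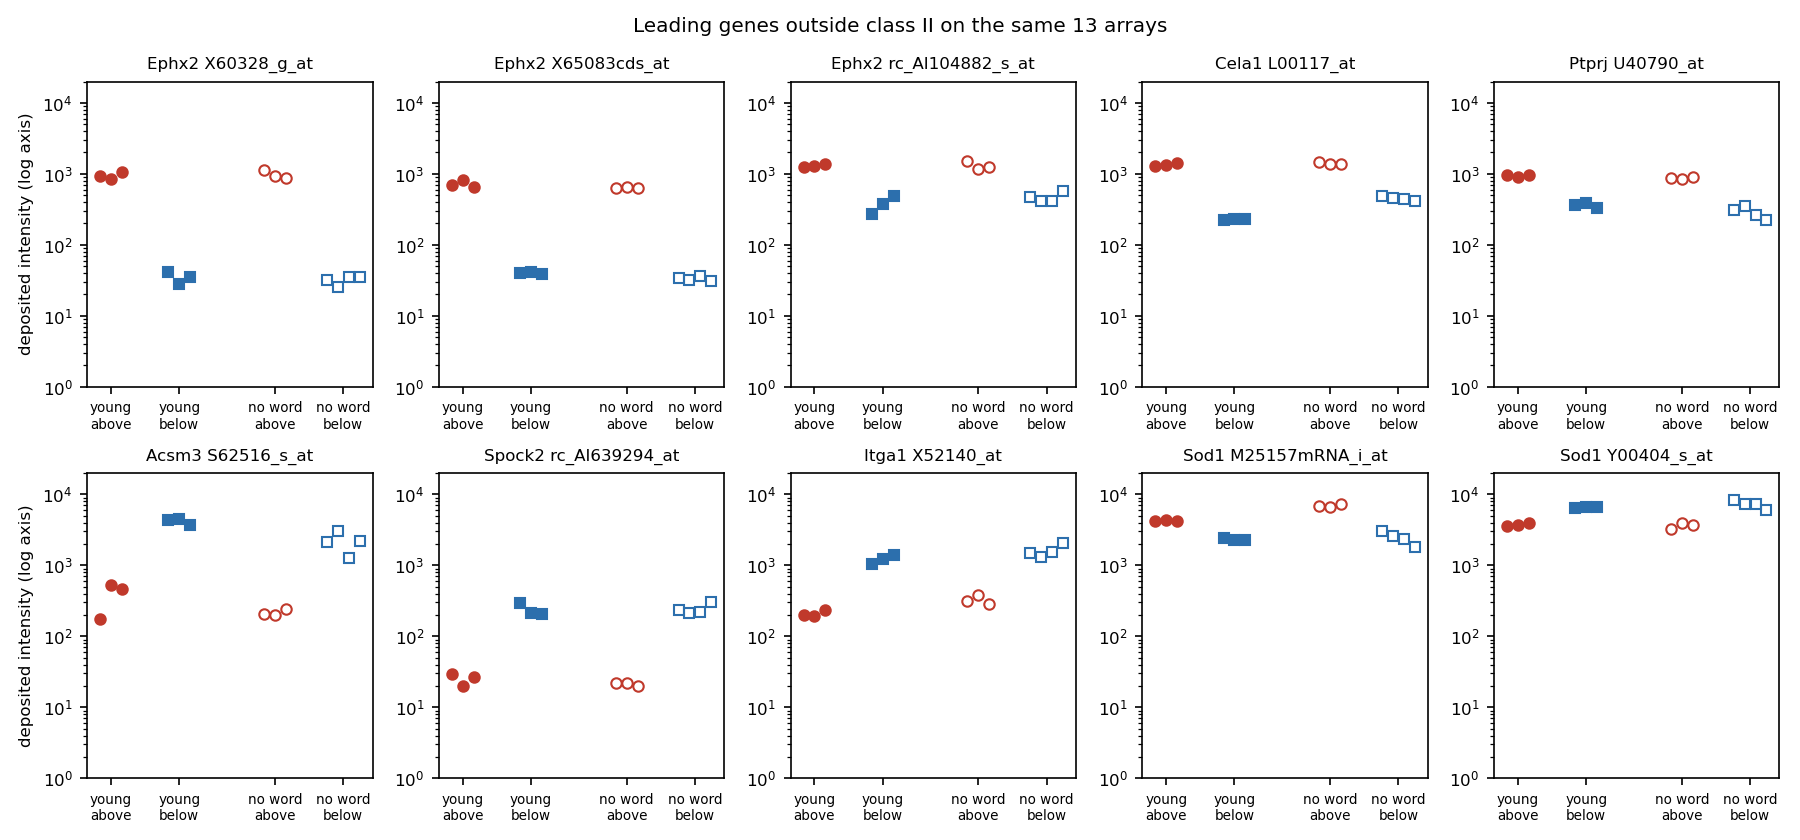
Deposited intensity (log axis) of 10 probe sets outside class II, 1 point per array, grouped and marked by description and side as for the class II probe sets. Ephx2, Cela1 and Ptprj are higher above 600, Acsm3, Spock2 and Itga1 are lower, and the pair of Sod1 probe sets runs in opposite directions, with medians of 5520.6 against 2378.5 and 3717.4 against 6714.9.

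Among the 12 named genes with the largest rises, 8 did not overlap between the sides, where 138 of all probe sets tested (2.11%) did not overlap, 1.21% as higher and 0.9% as lower. Their size was part of their choice, so this count is a description. Dnm1, a dynamin that cuts vesicles from membranes, read 170.8 to 304.2 above and 37.4 to 58.5 below, a difference of 2.05 ± 0.11 (limma adjusted p = 4.7e-08). Aif1l, an actin-binding protein, read 706.3 to 818.8 above and 119.1 to 297.5 below, a difference of 2.02 ± 0.15. Ptprj, a receptor tyrosine phosphatase, read 844.6 to 977.9 above and 221.6 to 387.2 below, a difference of 1.46 ± 0.11. Hba-a3, an alpha globin, differed by 1.42 ± 0.17, the RNA helicase Ddx42 by 1.41 ± 0.22, or 1.59 without replicate 10, which read 165.9 against 44.1 to 78.2 in the other arrays below, and the mitochondrial chaperone partner Dnaja3 by 1.37 ± 0.28. The transcription factor Klf6 differed by 1.85 ± 0.23, with 143.9 to 403.7 above and 31.3 to 169.8 below, so that its sides overlapped.

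Jund, a subunit of the AP-1 transcription factor, had the largest rise among named genes read by their brightest probe set, at 2.53 ± 0.40 (limma adjusted p = 0.0017). The young arrays read 236.7, 266.7 and 311.6 above and 26.0, 33.6 and 32.2 below. The arrays with no stage word read 484.5, 434.2 and 483.5 above and 48.5, 30.4, 35.8 and 394.9 below. The last value is replicate 10, which is near the arrays above on this gene. Without it the difference was 2.90. Lpl, the lipase that releases fatty acids from blood lipoproteins, behaved alike on replicate 10, at 1389.2 against 315.8 to 530.6 in the other arrays below, and its difference of 1.41 ± 0.25 became 1.61 without it.

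Acsm3, a medium-chain acyl-CoA synthetase of the mitochondrion, had the largest fall on the same measure. It read 177.0, 525.8 and 458.1 in young arrays above and 4320.3, 4427.3 and 3709.5 below. In kidneys with no stage word it read 207.8, 199.9 and 240.6 above and 2146.3, 3084.8, 1283.2 and 2213.2 below. The sides did not overlap in either description. The difference was -3.33 ± 0.24, which is 10.1-fold lower, with limma adjusted p = 9.4e-07.

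Of the 12 largest falls, 8 did not overlap between the sides, against 0.9% of all probe sets tested in that direction; here too size decided the choice. The matrix proteoglycan Spock2 read 20.1 to 29.5 above and 208.3 to 303.5 below (-2.71 ± 0.11), and the collagen-binding integrin chain Itga1 read 193.9 to 378.1 above and 1031.5 to 2077.8 below (-2.34 ± 0.12). The corepressor Atn1 read 35.9 to 148.9 above and 332.9 to 783.6 below (-2.56 ± 0.23). The retinol dehydrogenase Rdh16 read 348.7 to 588.1 above and 1153.3 to 2077.0 below (-1.84 ± 0.11). All 4 passed with limma adjusted p of 9.3e-06 or less. Bbx, a DNA-binding protein, differed by -1.36 ± 0.18, or -1.21 without replicate 10, and kept its call when any 1 array was left out.

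The 4 other falls were less firm. Car6, a secreted carbonic anhydrase, differed by -1.19 ± 0.29 (limma adjusted p = 0.042) and lost its call without any of 9 arrays. The B cell chemokine Cxcl13 differed by -1.14 ± 0.25 and lost its call without any of 4. The kinase Mapk7 (-1.11 ± 0.24) lost it without either of 2, and Mx2, an interferon-induced GTPase (-1.03 ± 0.24), without any of 7.

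Several genes are read by more than 1 probe set, which checks a call within the array. Of 62 genes with 2 or more probe sets tested and at least 1 called, 16 had 2 or more called. In 15 of these every called probe set went the same way. RT1-Bb is among the 15 only because X56596_at, which runs the other way, was left out of the fit. All 3 Lpl probe sets rose, and both probe sets of the extracellular superoxide dismutase Sod3 rose, by 1.12 ± 0.14 and 0.58 ± 0.10. Both of Glyatl2 and both of Gstt2, a glutathione transferase, rose, and both of Rdh16 fell. Of the 4 probe sets of S100a1, a calcium-binding protein, 2 fell, by limma adjusted p = 0.00017 and 0.022, and the other 2 gave -0.65 ± 0.17 and -0.20 ± 0.10 and did not pass. These were chosen for having 2 calls, after their values were seen.

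Sod1, the cytosolic superoxide dismutase, was the gene with calls in both directions among the probe sets tested. M25157mRNA_i_at read 4201.8 to 7219.6 above and 1793.9 to 3021.9 below, a difference of 1.22 ± 0.14 (limma adjusted p = 8.9e-05). Y00404_s_at read 3236.0 to 3919.5 above and 6115.1 to 8298.5 below, a difference of -0.91 ± 0.09 (limma adjusted p = 2.6e-05). M21060_s_at, the brightest, read 8557.3 to 10559.5 above and 8726.5 to 9569.1 below, with a difference of 0.02 ± 0.07. As with RT1-Bb, no single direction can be given for the gene.

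Of the kidney's own cells, proximal tubule genes gave 3 higher and none lower of 40 tested (7.5%, against 2.84% of all named genes), with a median of -0.01: Mep1b, a brush border protease (0.75 ± 0.14), the phosphate transporter Slc17a1 (0.43 ± 0.09) and Pck1, an enzyme of glucose synthesis (0.45 ± 0.11). Pck1 lost its call without any of 10 arrays, Slc17a1 lost it without either of 2, and Mep1b kept it throughout. Of 25 genes of the loop, distal nephron and collecting duct, 1 was lower, the water channel Aqp3, at 1137.7 above and 1907.9 below by median (-0.73 ± 0.13, limma adjusted p = 0.0038), and the list's median was -0.19. Its summed level was 40937.9 to 47573.9 above and 46052.1 to 53656.0 below. The kinase Sgk1 (-0.65 ± 0.17, limma adjusted p = 0.055) and the sodium channel chain Scnn1b (-0.49 ± 0.22) did not pass. None of 5 podocyte, 9 endothelial or 15 smooth muscle, mesangial and fibroblast genes passed. The lowest p there belonged to Ptpro (-0.17 ± 0.08), Pecam1 (-0.31 ± 0.10) and Col1a1 (-0.41 ± 0.22).

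Markers of immune cells are given beside the class II results, and their part in those results was not tested. Of all named genes, 2.84% passed. None of 12 T, B and natural killer cell markers passed, with a median of -0.14. Their summed level was 1554.8 to 2003.5 above and 1671.1 to 2152.2 below, and Spn, a leukocyte mucin, gave -0.72 ± 0.23 (limma adjusted p = 0.13). Of 9 macrophage, dendritic and granulocyte markers 1 was lower, the lysozyme Lyz2 (-0.75 ± 0.19, limma adjusted p = 0.046), which lost its call without any of 11 arrays. Their median was -0.28 and their summed level 6322.3 to 8573.8 above and 7394.5 to 11515.6 below, so the sides overlapped. The Fc receptor Fcgr2b gave -0.31 ± 0.09 and the chemokine Ccl4 -0.36 ± 0.15, and neither passed. Too dim to test were 7 and 8 further genes of these lists. Of 12 interferon response genes Mx2 alone passed; its relative Mx1 (-0.30 ± 0.13) and the interferon regulatory factor Irf3 (-0.82 ± 0.33) did not. Among 7 erythroid genes Hba-a3 was higher, the beta globins Hbb (0.44 ± 0.16) and Hbb-b1 (0.47 ± 0.17) did not pass, and the list's median of 0.42 was the highest of the 22 lists.

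Enzyme and hormone lists held a few further calls, where 2.84% of all named genes passed. Of 14 renin-angiotensin and kallikrein-kinin genes, the tissue kallikrein Klk1c9 (0.71 ± 0.10, limma adjusted p = 0.00084) and the kininogen Kng2 (0.69 ± 0.13) were higher, and angiotensinogen Agt (-0.31 ± 0.14) did not pass. The Klk1c9 probe set is again of the shared-family kind. Of 24 eicosanoid and epoxide genes, Ephx2 and the prostaglandin dehydrogenase Hpgd (0.63 ± 0.14) were higher, while the microsomal Ephx1 gave 0.39 ± 0.11 (limma adjusted p = 0.088). Of 41 glutathione and xenobiotic genes, Gstt2 was higher (1.14 ± 0.24) and the sulfotransferase Sult1a1 lower (-0.40 ± 0.09). Gstt2 read 1243.7 on replicate 10 and 365.4 to 433.2 on the other 3 arrays with no stage word below 600, and differed by 1.33 without it. Without the description in the fit, Klk1c9 and Gstt2 had limma adjusted p = 0.16 each, and with all arrays of both descriptions Kng2 had 0.18. A list of 23 genes known in the field as differing in SHR held 2 calls, Ephx2 higher and Acsm3 lower.

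Of 29 immediate early, heat shock and injury genes Jund was higher and heme oxygenase Hmox1 (-0.59 ± 0.13) and clusterin Clu (-0.54 ± 0.13) were lower. Of 16 fat, adrenal, liver and muscle genes Lpl passed. Among 10 clock genes the kinase Wee1 was higher (0.43 ± 0.09), and among 21 cell cycle genes Plk1 (-0.56 ± 0.14) and among 30 matrix genes the laminin chain Lamb2 (-0.36 ± 0.09) were lower. Hmox1, Clu, Wee1, Plk1, Lamb2, Hpgd and Sult1a1 each lost their calls without at least 1 array. Of the 22 lists, 17 held 1 to 3 called genes and 5 held none. Over all named genes 2.84% passed, and the matrix (3.33%), cell cycle (4.76%) and glutathione (4.88%) lists lay near that share.

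**Figure D3:**
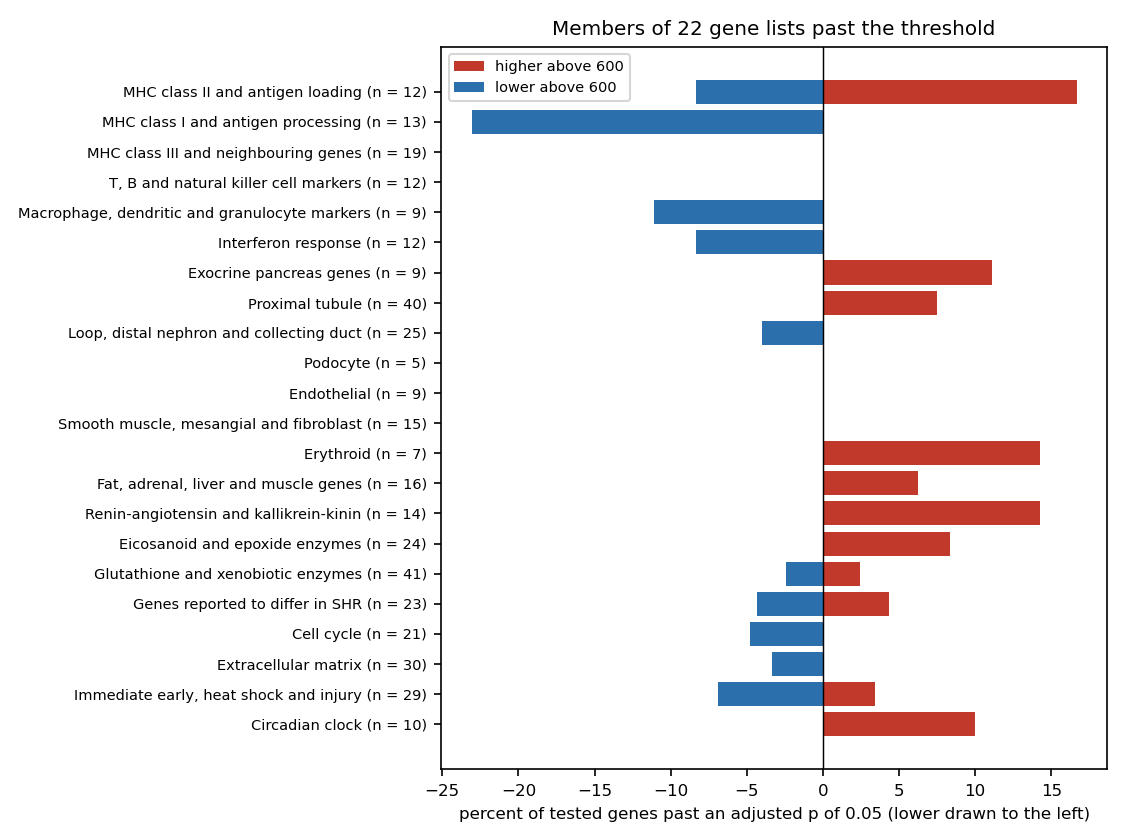
Percent of the tested genes of each of the 22 lists that passed an adjusted p of 0.05 in limma, drawn to the right where higher and to the left where lower in arrays above 600; n is the number tested. The class I list reaches 23.1% on the left with 3 genes of 13, against 2.84% of all named genes, and bars of short lists rest on 1 gene.

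The labelled difference between the descriptions was larger in count than the split. In the same fit, 1391 of 6554 probe sets (21.2%) differed between young kidneys and those with no stage word, 967 higher (14.8%) and 424 lower (6.47%) in young. After quantile normalization the split of directions was 649 higher and 575 lower, so the direction of this difference depends on the scaling. Both comparisons called 54 probe sets. Of the 24 leading genes, 6 also differed between the descriptions: Cela1 was lower in young by 0.52 and Klf6 by 0.91, Itga1 by 0.49 and RT1-CE16 by 0.28, while Acsm3 was higher by 0.84 and Rdh16 by 0.39. A test of whether the split itself differed between the descriptions called 0 probe sets (0.0%) in limma, with 406 at an unadjusted p under 0.05, and leaving out each array in turn gave 0 to 1. With 3 or 4 arrays on a side this does not show that the descriptions act alike.

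Arrays that the rule did not use gave the same measures in other kidneys. Outside the 13, 6 arrays were above 600 on X56596_at (1411.5 to 2007.8), 3 described as immature and 3 as mature, and 36 were below (80.1 to 263.0). A limma fit of the 20 immature and mature arrays at 9000 or above on the spiked control, 3 against 3 and 3 against 11, called 54 probe sets (0.824%), and 35 without replicate 4 or 32 without replicate 8 of the mature arrays, both above 600. Of the 54, 37 were called in the 13 arrays in the same direction, which is 68.5% of the 54 and 17.5% of the 211. The 37 include M36151cds_i_at and U65217_i_at, annotated to the gene that made the groups, and the proposed markers RT1-Ba and Cela1. Among probe sets called in the 13 and tested in both, 173 of 203 (85.2%) had the same sign, against 56.1% of all tested in both. The ratio of 3′ to 5′ GAPDH was 0.976 to 2.62 in the mature arrays above and 0.946 to 7.18 in those below, and the part of RNA quality in this fit was not tested. The 5S control also went with the side in the mature arrays, at 100 or less above and 36.2 to 621.9 with a median of 338.3 below. The spiked control AFFX-CreX-3_at read 9185.6 to 10111.6 in the mature arrays above and 10925.8 to 34126.0 in those below, without overlap. The side and the set of arrays are therefore mixed there. Because of the 5S control, the 11 arrays with a 5S control of 100 or less were also fitted alone. There, 175 of 203 had the same sign (86.2%), against 58.4% of all. The 2 mature arrays below 600 among them had 3′ to 5′ ratios of 1.45 to 3.47 for GAPDH and 2.75 to 5.55 for actin. The 3 mature arrays above had 0.976 to 2.62 and 1.11 to 2.82, and the part of RNA quality was not tested here either. On the spiked control the 2 below still read 10925.8 to 21191.3. The sides of the 6 immature arrays did not overlap on the 5S control, at 24.1 to 31.9 above and 39.8 to 55.0 below. Nor did they on the GAPDH ratio, at 0.972 to 1.03 above and 0.827 to 0.968 below. In the fits of the 11 and of the 6, the side cannot be told apart from these controls. The fit of these 11 called 34 probe sets (0.519%), and that of the 6 immature arrays alone called 4 (0.061%). U65217_i_at of RT1-Bb is in both counts.

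The genes that led the split did not all repeat. In the 20 arrays, 12 of 12 leading rises and 9 of 12 leading falls kept their sign, and 9 of the 24 passed. RT1-Ba (1.46, limma adjusted p = 2.8e-07), Cela1 (2.03, limma adjusted p = 6.1e-08) and Ptprj (2.30, limma adjusted p = 0.00049) were higher, with Aif1l (1.51) and Hba-a3 (1.86). Rdh16 (-1.90), Bbx (-1.70), Acsm3 (-2.86) and RT1-A3 (-1.43) were lower. Atn1 read 0.28, Mapk7 0.12 and Mx2 0.12, the opposite sign to that in the 13 arrays, and none of these 3 passed. Klf6 read 0.69 in the 20 arrays and -0.17 in the 11 with a low 5S control. Ephx2 on its brightest probe set, rc_AI104882_s_at, read 0.78 in the 20 arrays (limma adjusted p = 0.11). In the 11 it read 0.96 (limma adjusted p = 0.065). Ephx2 X60328_at (3.62), X60328_g_at (3.52) and X65083cds_at (2.63) passed in the 20 arrays. They also passed in the 11, at 3.85, 3.95 and 3.08. RT1-CE16 read -1.39 in the 20 (limma adjusted p = 0.32) and -0.08 in the 11 (limma adjusted p = 0.95). Its sides overlapped outside the 13, at 1015.8 to 4894.6 above and 1392.4 to 22858.8 below. In the 20 arrays RT1-Db1 X53054_at read 2.15 (limma adjusted p = 0.0003), while Aqp3 read -0.14, Psmb8 -0.18 and Cd74 -0.47, none of which passed. The exocrine pancreas gene Cel turned sign, from -0.30 in the 13 arrays to 0.78 in the 20, where it passed (limma adjusted p = 0.037). In the 11 it read 0.63 and did not pass (limma adjusted p = 0.38). Of the 9 leading genes that passed in the 20 arrays, RT1-Ba, Cela1, Ptprj, Hba-a3 and Bbx also passed in the 11. Aif1l (1.3), Rdh16 (-1.64), Acsm3 (-1.98) and RT1-A3 (-1.76) kept their sign in the 11 and did not pass there.

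**Figure D4:**
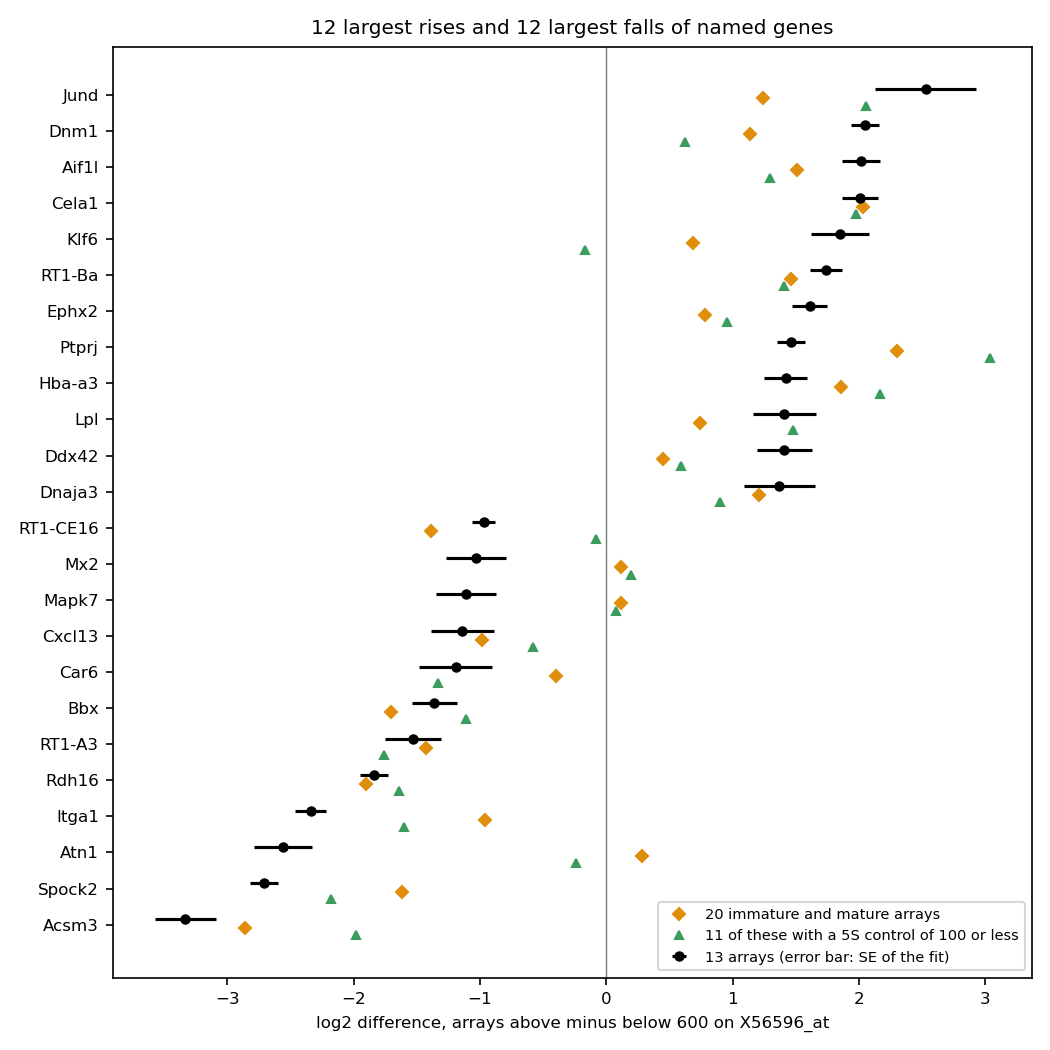
Log2 difference, arrays above minus arrays below 600 on X56596_at, for the 12 largest rises and 12 largest falls among named genes: circles, the 13 arrays with the SE of the fit; diamonds, the 20 immature and mature arrays; triangles, the 11 of these with a low 5S control. Cela1 reads 2.01, 2.03 and 1.98 in the 3 fits, while Atn1 reads -2.56, 0.28 and -0.24.

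Over all 55 arrays, 12 probe sets (0.183%) separated the 12 arrays above 600 from the 43 below with no overlap. They are both opposed RT1-Bb probe sets, RT1-Ba K02815_s_at, RT1-Db1 X53054_at, Cela1, Ptprj, Ephx2 X60328_at and X60328_g_at, and Cyfip2, a regulator of actin assembly. The other 3 have no single gene symbol in the annotation used. Cyfip2 is named for this after its values were seen, and differed by 0.67 ± 0.09 in the 13 arrays. Cela1 read 911.5 to 1582.9 in the 6 outside arrays above and 165.5 to 520.5 in the 36 below. Ephx2 X60328_g_at read 644.7 to 926.3 above, and below it read 16.9, 42.5 and 565.8 (lowest, median, highest), so arrays below 600 spread far more widely outside the 13 than within them, where the highest was 41.5. The brightest Ephx2 probe set, rc_AI104882_s_at, overlapped outside the 13, at 828.3 to 1496.0 above and 306.6 to 1354.3 below. Ephx2 X65083cds_at also overlapped there, at 300.8 to 667.1 above and 11.4 to 446.9 below. U65217_i_at read 0.9 to 7.4 above and 174.2 to 877.0 below.

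**Figure D5:**
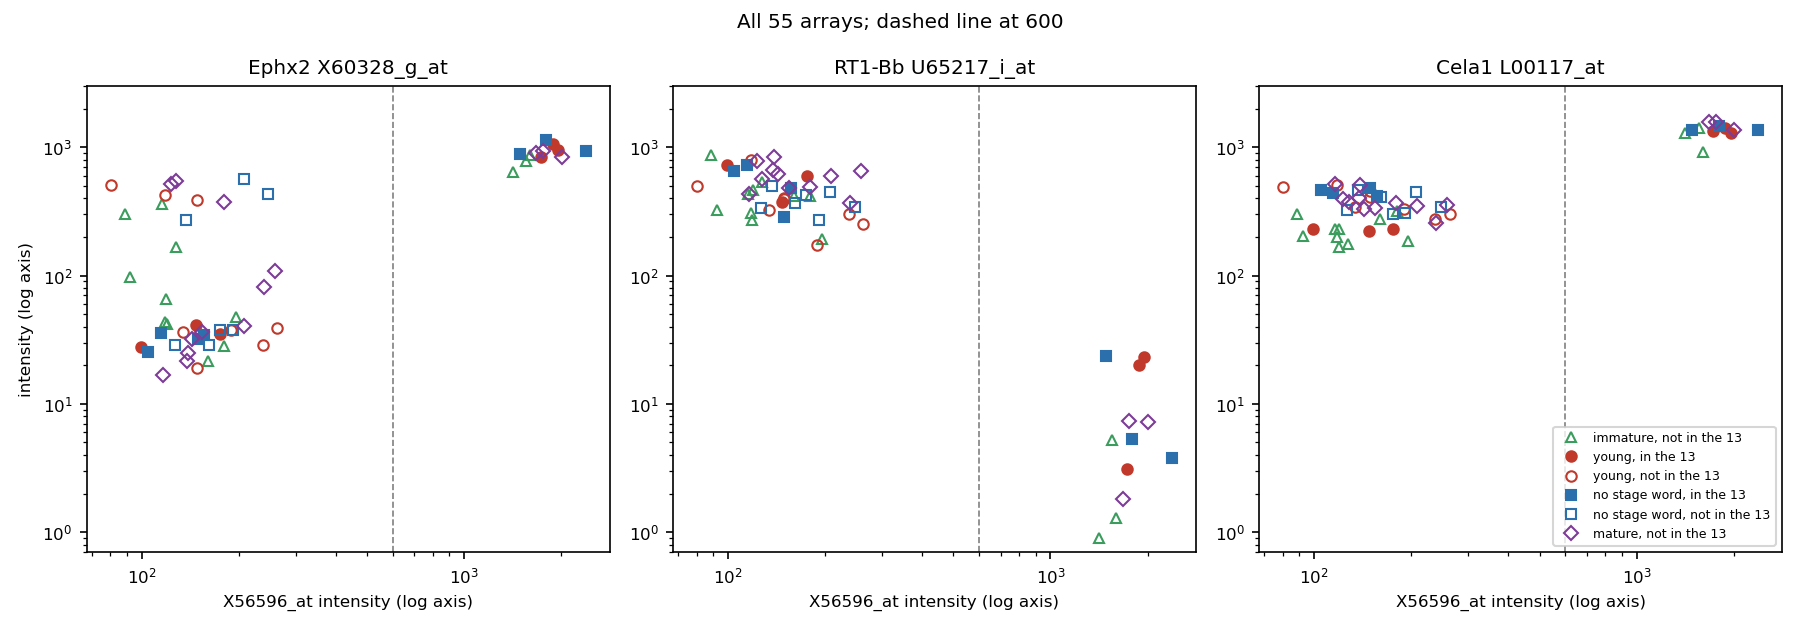
Intensity of 3 probe sets (log axis) against X56596_at (log axis) on all 55 arrays, 1 point per array, by description; filled points are the 13 arrays and the dashed line is the threshold of 600. The 12 arrays to the right stand clear of the 43 to the left in each panel. They are high for Ephx2 X60328_g_at and Cela1 and low for U65217_i_at. Arrays to the left reach 565.8 for Ephx2 X60328_g_at only outside the 13.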

How the data were processed

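The deposited table holds 1 intensity per probe set and array, 8799 probe sets on 55 arrays, and no other column was used. The authors' scaling is not given in the sources used here; in the deposited intensities the trimmed mean of each of the 13 arrays was 500.5 to 500.6, and 13 values were 0. Probe sets were named from the platform's annotation, with symbols updated by identifier: 7018 had 1 symbol, 308 several and 1473 none. Intensities were turned into log2(intensity + 15.82), the offset being 0.1 of the median of all values, and probe sets under the 25th percentile of the mean were left out, with X56596_at. limma 3.58.1 (R 4.3.3; lmFit, eBayes, two-sided) fitted the split with the description as covariate, with Benjamini-Hochberg adjustment over 6554 probe sets and a threshold of 0.05. The script was tested on simulated data: it recovered 40.3% of changes of 0.5, 91% of 1 and 98.5% of 2 on the log2 scale, and 6 of its 159 calls were false. A named gene is read by its brightest probe set over all arrays. The genes named are the 12 largest rises and 12 largest falls past the threshold, every class II list member, Cela1, and up to 3 genes of lowest p from each other list; others are marked where they appear. The members and lists were chosen with earlier results of these data known. Alternatives were another offset, no filter, quantile normalization, no covariate, other thresholds, X56596_at as a number, all arrays of both descriptions, array weights, another prior, each description alone and each array left out. RefSeq promoters came from GRCr8. Figures used matplotlib 3.10.9. The number of arrays limits precision.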

Additional observations from a re-analysis of the deposited data

Results flagged for a closer look

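In 9 of 130 probe sets examined, 1 of the 4 arrays with no stage word below 600 lay far from the other 3; chance alone marks about 1 in 20 such groups. Replicate 10 was that array for 5 of them: Jund (394.9 against 30.4 to 48.5), RT1-Ba K02815_s_at (884.1 against 645.9 to 677.0), Bbx (458.4 against 181.1 to 209.4), RT1-DOb (18.5 against 5.2 to 6.8) and Gstt2 (1243.7 against 365.4 to 433.2). Its ratio of 3′ to 5′ actin was 1.75, the highest of the 13 arrays, and the part of RNA quality in these values was not tested. Replicate 9 was apart for RT1-DMb (1613.6 against 1142.3 to 1173.3) and Mep1b (1561.3 against 1007.2 to 1039.4), replicate 1 for S100a4 (209.7 against 601.8 to 637.9) and replicate 5 for Cyfip2 (403.6 against 334.8 to 345.6).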

How the results depend on the processing

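No paired analysis was possible because the labels carry no replicate numbers that groups share. With both descriptions together, the split called 142 to 288 probe sets under the other settings and 151 to 240 when each array was left out in turn. It called 80 in young arrays alone and 64 in arrays with no stage word alone, where fewer arrays were fitted. Of 71 called probe sets of named genes, 44 kept their call under every setting with both descriptions, 30 in young arrays alone and 28 in the others alone, and 0 turned direction. The count for young against no stage word was 1062 to 1705 over single arrays left out, and the interaction 0 to 1. The fit of the 20 other arrays called 54, with 32 to 75 over single arrays left out, 4 in immature arrays alone and 34 in arrays with a low 5S control; these alternatives were chosen after seeing the data. The planned fit of immature arrays below 9000 on the spiked control was not run, since all 7 lie below 600.

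Signs turned for 12 probe sets that did not pass, and the cause was not tested. Over single arrays left out, the difference ran from -0.09 to 0.05 for RT1-Ba M22366_at, -0.17 to 0.06 for RT1-DMb U31599_at, -0.06 to 0.01 for RT1-DOa, -0.02 to 0.11 for RT1-Ha, -0.08 to 0.00 for Rfx5 and -0.01 to 0.04 for Sod1 M21060_s_at. With array weights it was 0.06 for RT1-Ba M22366_at and 0.02 for RT1-DOa. With quantile normalization it was 0.00 for M22366_at and U31599_at, and per doubling of X56596_at 0.00 for M22366_at. In young arrays alone it was 0.14 for M22366_at, 0.15 for Rfx5, -0.07 for Sod1, 0.07 for Cd37, 0.02 for Irf3, 0.03 for Mx1 and 0.31 for S100a4. In arrays with no stage word alone it was 0.02 for RT1-DMa, 0.32 for RT1-DMb, 0.03 for RT1-DOa and 0.03 for Wt1.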
